A study of Homo sapiens with 28 samples.

Results

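SH3PXD2A and SH3PXD2B encode the podosome scaffold proteins TKS5 and TKS4, and the open chromatin of their 2 loci is described here. The members are 28 accessible regions (sites), 17 at SH3PXD2A and 11 at SH3PXD2B, of 32972 regions over the genome. A site belongs to a locus if it overlaps the gene with 50 kb on each side, in hg19 coordinates: chr10:105353784-105615164 for SH3PXD2A and chr5:171760503-171881527 for SH3PXD2B. The loci were chosen by the calls of these same libraries, because each lies in a 1 Mb window rich in sites that were called with wild-type ARID1A or ARID1B and not with the empty vector. The difference between wild type and empty vector at the loci is therefore given as a description, with no test.

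TKS5 and TKS4 are adaptor proteins with an amino-terminal PX domain, which binds membrane phosphoinositides, followed by several SH3 domains. Both are substrates of the kinase Src, and they organise actin regulators and proteases at podosomes and invadopodia, the membrane protrusions with which cells degrade matrix. ARID1A and ARID1B are alternative subunits of the canonical BAF (cBAF) complex, an ATP-dependent remodeler that moves nucleosomes and opens enhancers.

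The assay was ATAC-seq, which marks accessible DNA by transposase insertion, and the cells were AN3CA, an established line of human endometrial carcinoma. The 28 libraries form 13 groups by their titles, with 4 libraries of Empty_Vector and 2 of each other group. ARID1A_WT and ARID1B_WT express the wild-type proteins. Of the 10 altered forms, ARID1A_CBR and ARID1A_delIDR1 are labelled as truncations, ARID1A_DBDmut as a mutant of the ARID domain, and ARID1A_DDX4 as a hybrid with a disordered region of DDX4. ARID1B_S320_G327del is labelled as mutant M2 of ARID1B. For ARID1A_Y42S, ARID1A_AQGscramC1C2, ARID1B_A457_G461del, ARID1B_Block13del and ARID1B_Block9del the title names the construct while the genotype label names the empty vector, in 10 libraries in all. They were grouped by title. AN3CA is known from earlier work, not from these labels, as a line deficient in both ARID1 proteins. How the constructs were delivered, whether a line was 1 clone and whether replicates were separate cultures were not stated in the labels, so spreads and p-values measure differences between libraries that may be technical. The sample titles name ATAC-seq, while the design text describes CUT&Tag, and the lists were taken as ATAC-seq.

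Peaks were called per library, and each library's deposited list held 19489 to 76589 peaks. No read counts are part of the lists, so sequencing depth is unknown and no interval was computed from it. Because list length differed, each list was also reduced to its 19433 strongest peaks by −log10 p-value (the length of the shortest list on chromosomes 1 to 22 and X), here called equal-length lists. A site's rank in a library is the place of its strongest peak in that order, with 1 the strongest, and its fold is the authors' enrichment over the background of their peak caller, given as each list has it and not compared between lists. Date codes in the peak names divide the libraries into 6 sets, called runs A to F here, and whether a code marks sequencing or processing is not stated. Runs A and B hold Empty_Vector 1 and 2 with ARID1A_WT, DBDmut, delIDR1 and CBR; run C holds Empty_Vector 3 and 4 with ARID1B_WT and S320_G327del. Run D (DDX4), run E (Y42S, A457_G461del, Block13del, Block9del) and run F (AQGscramC1C2) lack both controls, empty vector and wild type. In bulk lists, a peak that is weaker in each cell and a peak present in fewer cells cannot be told apart.

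Both genes lie on the minus strand, and a site is named by the distance of its middle from the gene start, positive into the gene. The promoter sequences are shown because the merged site over the start of each gene was called in every whole list. The 250 bases upstream of each start are given from RefSeq, build GRCh38.p14, at chr10:103855577-103855826 (minus strand) for SH3PXD2A and chr5:172454526-172454775 (minus strand) for SH3PXD2B. They read 5′ to 3′ with the CG dinucleotides in capitals. The peak coordinates are hg19 and were not converted.
SH3PXD2A: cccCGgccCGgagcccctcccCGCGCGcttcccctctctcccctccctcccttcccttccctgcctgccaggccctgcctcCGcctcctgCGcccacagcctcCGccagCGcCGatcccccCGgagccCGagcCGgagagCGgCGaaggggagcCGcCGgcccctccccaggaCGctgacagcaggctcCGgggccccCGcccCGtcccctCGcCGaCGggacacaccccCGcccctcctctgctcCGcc
SH3PXD2B: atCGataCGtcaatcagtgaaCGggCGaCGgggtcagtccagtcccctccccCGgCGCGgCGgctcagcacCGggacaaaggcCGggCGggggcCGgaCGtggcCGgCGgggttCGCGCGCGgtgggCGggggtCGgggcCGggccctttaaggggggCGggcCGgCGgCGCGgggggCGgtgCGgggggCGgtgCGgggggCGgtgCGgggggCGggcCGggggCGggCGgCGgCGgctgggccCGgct
Both are rich in G and C, at 79.6% for SH3PXD2A and 82.8% for SH3PXD2B, against a median of 58.0% over 35116 promoters of the same length. SH3PXD2A has 26 CG dinucleotides and SH3PXD2B has 41, against a median of 11. SH3PXD2A has 5 starts in the RefSeq table and the sequence belongs to 1 of them, while SH3PXD2B has 1. On both strands, neither sequence contains TGANTCA (AP-1), GGAATG (TEAD) or CACGTG (E-box), which occur in 6.57%, 11.9% and 6.35% of the promoters. These letters are not in this window, and nothing follows from that about the factors. The neighbouring protein-coding genes in the RefSeq table are NEURL1 and STN1 for SH3PXD2A, and UBTD2 and NEURL1B for SH3PXD2B. No hg19 genome or annotation was used here, so exons, introns and the bases of the peaks were not analysed here.

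The sites fell into constant and changing ones. Of the 28 sites, 17 lay within the genes, 7 in the flanks upstream of the starts and 4 in the downstream flanks, and their widths ran from 262 to 3792 bp with a median of 903 bp. In the equal-length lists, 5 sites were called by all 28 libraries, against 30.1% of all regions. At least 27 libraries called 8 sites, against 33.6% of all regions, and 5 or fewer called 9 sites, against 25.3%. In the whole lists, 8 sites were called by all 28 libraries, against 47.8% of all regions.

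**Figure D1:**
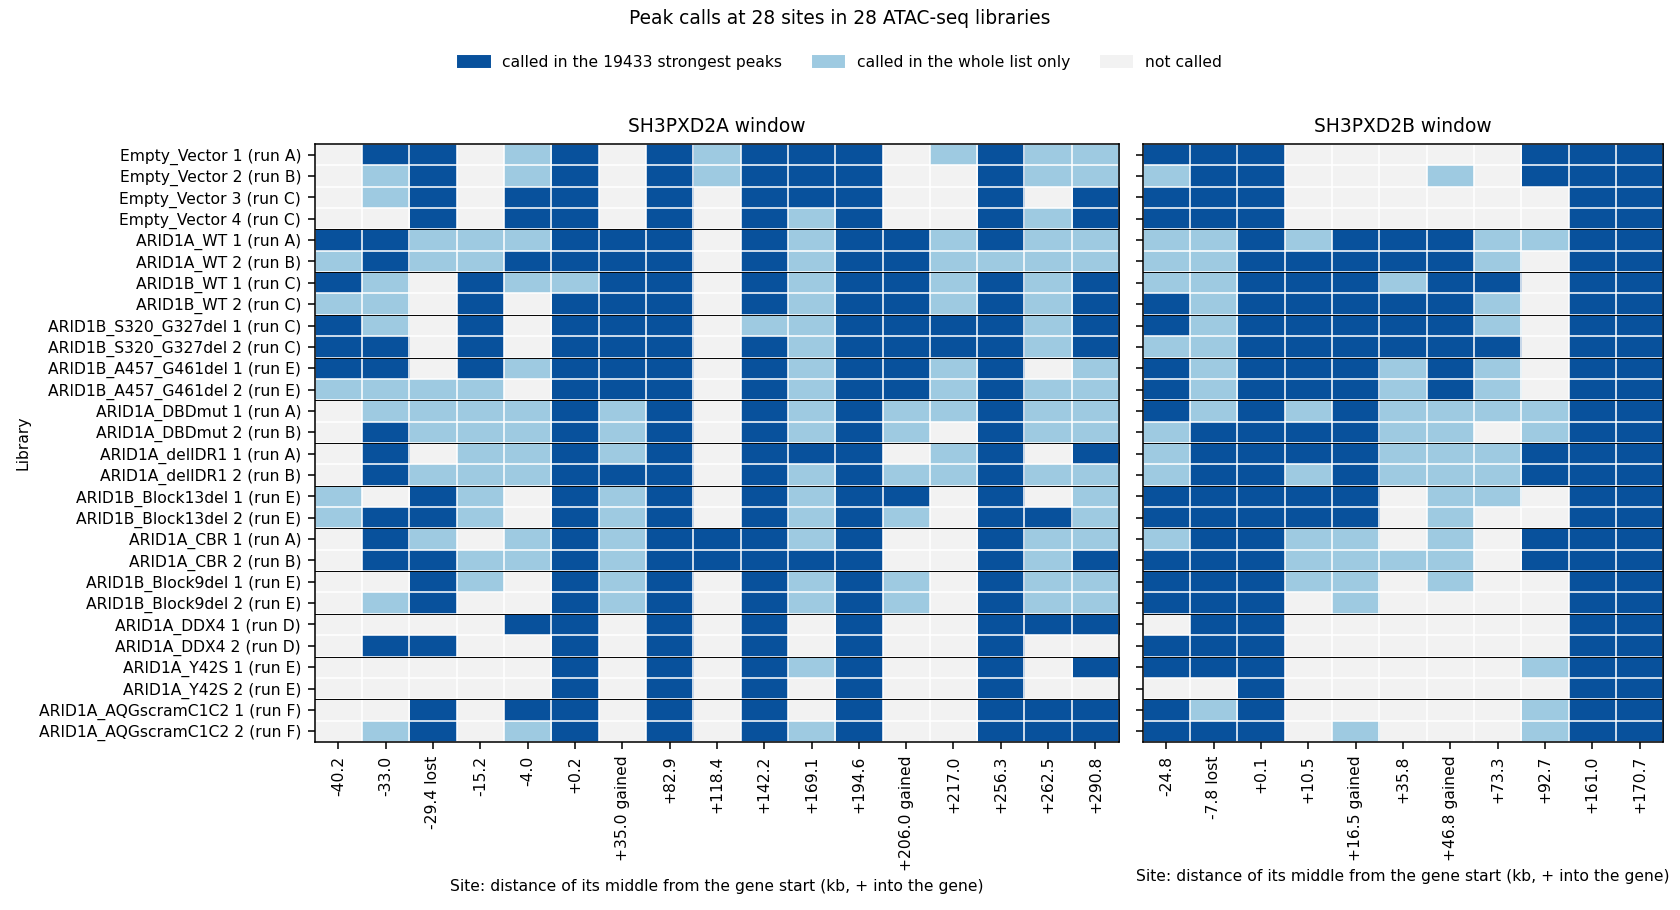
Calls of the 28 sites (columns, by distance in kb from the gene start) in the 28 libraries (rows, by construct and run); dark blue marks a call in the 19433 strongest peaks, light blue a call in the whole list only, grey no call. The 4 gained columns are dark in the wild-type, S320_G327del and A457_G461del libraries and grey in DDX4 and Y42S.

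A site called in all 4 wild-type and no empty vector equal-length list is named gained, and the opposite lost. At the 2 loci 4 sites were gained, 2 at each gene, where 5.78% of all regions were gained. There were 2 lost sites, 1 at each gene, where 2.27% of all regions were lost. With whole lists merged anew the loci had 10 and 7 gained sites, and with the top 10000 peaks 0. All 4 gained sites of the equal-length lists lay within the genes and both lost sites in the upstream flanks. Since these counts rest on the contrast that chose the loci, nothing is read from their height above the genome.

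The gained site of SH3PXD2A at +35.0 kb lies at chr10:105579506-105580729 and is 1224 bp wide. Its rank was 10879 and 11852 in the 2 ARID1A_WT libraries and 4720 and 7518 in the 2 ARID1B_WT libraries. The fold was 5.20 and 5.05 with ARID1A_WT, and 6.18 and 5.99 with ARID1B_WT. No Empty_Vector list held a peak there, at any rank. Both ARID1B_S320_G327del libraries called it at ranks 10377 and 8327, and both ARID1B_A457_G461del libraries at 8050 and 11686, which is within the range of the wild-type ranks. ARID1A_delIDR1 2 called it at rank 19261, just inside the equal-length list, and delIDR1 1 at 21080, just outside. ARID1A_DBDmut had it at 20456 and 22012, ARID1B_Block13del at 22186 and 24647, ARID1B_Block9del at 25441 and 24754, and ARID1A_CBR at 39404 and 39295, all only in the whole lists. ARID1A_DDX4, ARID1A_Y42S and ARID1A_AQGscramC1C2 had no peak there.

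The gained site of SH3PXD2A at +206.0 kb, chr10:105408523-105409731, is 1209 bp wide and lies in the distal part of the gene. Its rank was 14852 and 15214 with ARID1A_WT and 5421 and 7590 with ARID1B_WT. The fold was 3.61 and 3.59 with ARID1A_WT and 3.97 and 3.91 with ARID1B_WT. It was the weakest of the 4 gained sites by mean wild-type rank, 10769, and no Empty_Vector list held it. The ranks were 7550 and 5819 with S320_G327del and 10636 and 10961 with A457_G461del. Block13del 1 called it at 17285, while Block13del 2 had it only in the whole list, at 28380. DBDmut (45245 and 39413), delIDR1 2 (43445) and Block9del (29773 and 26276) had weak peaks in their whole lists, and CBR, DDX4, Y42S and AQGscramC1C2 had none. CBR and DBDmut come from the same runs, and the site was in the whole lists of DBDmut only, at ranks deep in lists of unequal length. The whole lists of CBR 1 and 2 held 45089 and 65949 peaks on chromosomes 1 to 22 and X. A peak at rank 45245 could thus not appear in CBR 1.

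SH3PXD2B had its gained sites at +16.5 kb and +46.8 kb. The site at +16.5 kb, chr5:171864215-171865756, is 1542 bp wide and was the most widely shared, called in 14 equal-length lists. Its rank was 7340 and 8208 with ARID1A_WT and 10211 and 6430 with ARID1B_WT, so the wild-type groups overlapped. No Empty_Vector list held it. A457_G461del (10024 and 8933) called it within the wild-type range, and of the S320_G327del ranks 9225 lay within it and 5444 ahead of it. DBDmut (10573 and 11407), delIDR1 (11978 and 13257) and Block13del (14410 and 11491) also called it in both libraries, at ranks behind every wild-type library. CBR (25451 and 29858), Block9del (21729 and 24316) and AQGscramC1C2 2 (34377) had it only in the whole lists. DDX4, Y42S and AQGscramC1C2 1 had no peak there.

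The site of SH3PXD2B at +46.8 kb, chr5:171834247-171835147, is 901 bp wide. Its rank was 10176 and 11936 with ARID1A_WT and 3018 and 5179 with ARID1B_WT, and the fold was 4.88 and 4.53 with ARID1A_WT and 6.40 and 6.34 with ARID1B_WT. By mean wild-type rank, 7577, it was the strongest of the 4. It is also the gained site at which an empty vector library had a peak: Empty_Vector 2 listed it at rank 47549 of its whole list, with a fold of 2.82. S320_G327del ranked it at 4460 and 5817 and A457_G461del at 14642 and 13924. The A457_G461del ranks lay behind all wild-type ranks at this site. Block13del (25985 and 27359), Block9del 1 (28260), DBDmut (34521 and 38267), delIDR1 (35924 and 35637) and CBR (43382 and 54317) had weak peaks in the whole lists. In Block9del 2, DDX4, Y42S and AQGscramC1C2 it was not listed.

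**Figure D2:**
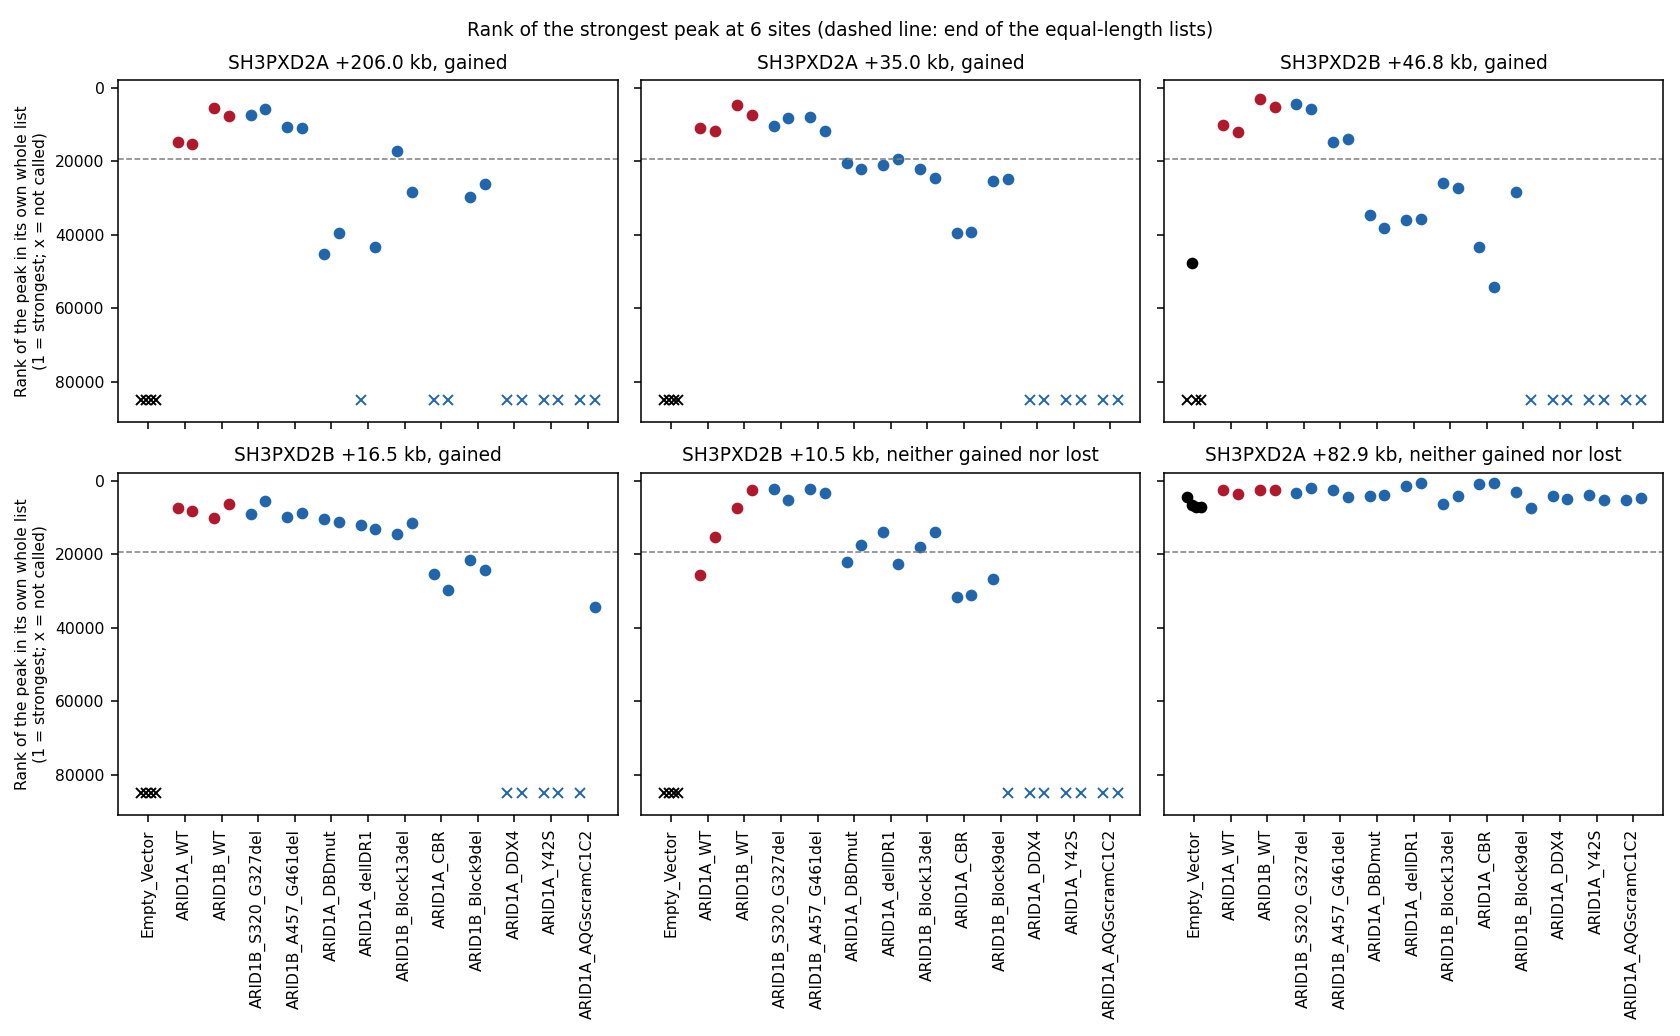
Rank of the strongest peak at 6 sites (y axis, 1 at the top) in each library, by construct (x axis); red is wild type, black Empty_Vector, blue an altered form, a cross marks no peak, and ranks below the dashed line come from lists of different length and are not compared. At the 4 gained sites the wild-type points lie between ranks 3018 and 15214 and the empty vector has 1 peak, at 47549.

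The 4 sites were set beside the 1905 gained regions of the genome. Their mean wild-type ranks ran from 7577 to 10769, and the median over all gained regions was 11060. A better mean rank was held by 45.8%, 27.5%, 18.8% and 22.4% of the gained regions for SH3PXD2A +206.0 and +35.0 kb and SH3PXD2B +46.8 and +16.5 kb. Of the 20 altered libraries, 5, 5, 4 and 10 called these sites in the same order, with a median of 6 over all gained regions. The absence from every whole empty vector list, seen at 3 of the 4 sites, held for 72.0% of gained regions. The widths of the 4 sites, 901 to 1542 bp, lay on both sides of the median of all gained regions, 974 bp.

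The altered forms differed in how many of the 4 gained sites they called. In the equal-length lists both S320_G327del and both A457_G461del libraries called 4 of 4. With the top 10000 peaks, S320_G327del called 87.5% of the same sites and A457_G461del 25.0%. The mean share was 37.5% ± 17.7 for delIDR1 and for Block13del, and 25.0% ± 0 for DBDmut (SD, n = 2 each). CBR, DDX4, Y42S, AQGscramC1C2 and Block9del called 0 of 4 in both libraries. Over all 1905 gained regions the same shares were 94.6% ± 0.481 for S320_G327del and 81.9% ± 1.0 for A457_G461del. They were 46.9% ± 2.31 for DBDmut, 44.7% ± 1.67 for delIDR1, 31.1% ± 2.12 for Block13del and 19.3% ± 0.297 for CBR (SD, n = 2 each). DDX4, Y42S, Block9del and AQGscramC1C2 called 7.24%, 4.49%, 3.44% and 2.44% of all gained regions. With 4 sites a library's share moves in steps of 1 site, and the shares at the loci were not tested against those of the genome.

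The order changed in the whole lists, which hold weaker peaks and differ in length. DBDmut and Block13del then called 4 of 4 sites in both libraries. Block9del called 4 and 3 of 4, delIDR1 3 and 4, CBR 3 and 3, and AQGscramC1C2 0 and 1. DDX4 and Y42S called none in either library. For Y42S 2 this could not change, since its whole list is its equal-length list. The empty vector called 1, 1 library at 1 site. The whole-list shares over all gained regions were 96.6% ± 0.820 for DBDmut, 95.8% ± 2.67 for delIDR1, 87.5% ± 3.05 for Block13del and 27.6% ± 11.2 for AQGscramC1C2. They were 53.2% ± 2.23 for Block9del and 72.8% ± 10.3 for CBR, with 13.9% ± 2.74 for DDX4 and 17.7% ± 15.7 for Y42S (SD, n = 2 each). The empty vector called 15.0% ± 10.7 (SD, n = 4). DDX4 and Y42S had 19489 to 28883 peaks, and Block9del, with 30137 and 30140, called 4 and 3 of 4. The Block9del peaks at these sites ranked 21729 to 29773. On chromosomes 1 to 22 and X, the whole lists of Y42S 2, DDX4 1 and DDX4 2 held 19433, 21094 and 23559 peaks. Peaks at the Block9del ranks could thus not appear in Y42S 2 or DDX4 1. With 36160 peaks AQGscramC1C2 2 called 1, and Empty_Vector 1 and 2, with 45286 and 49528, called 0 and 1. The part of list length in the calls was not tested.

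**Figure D3:**
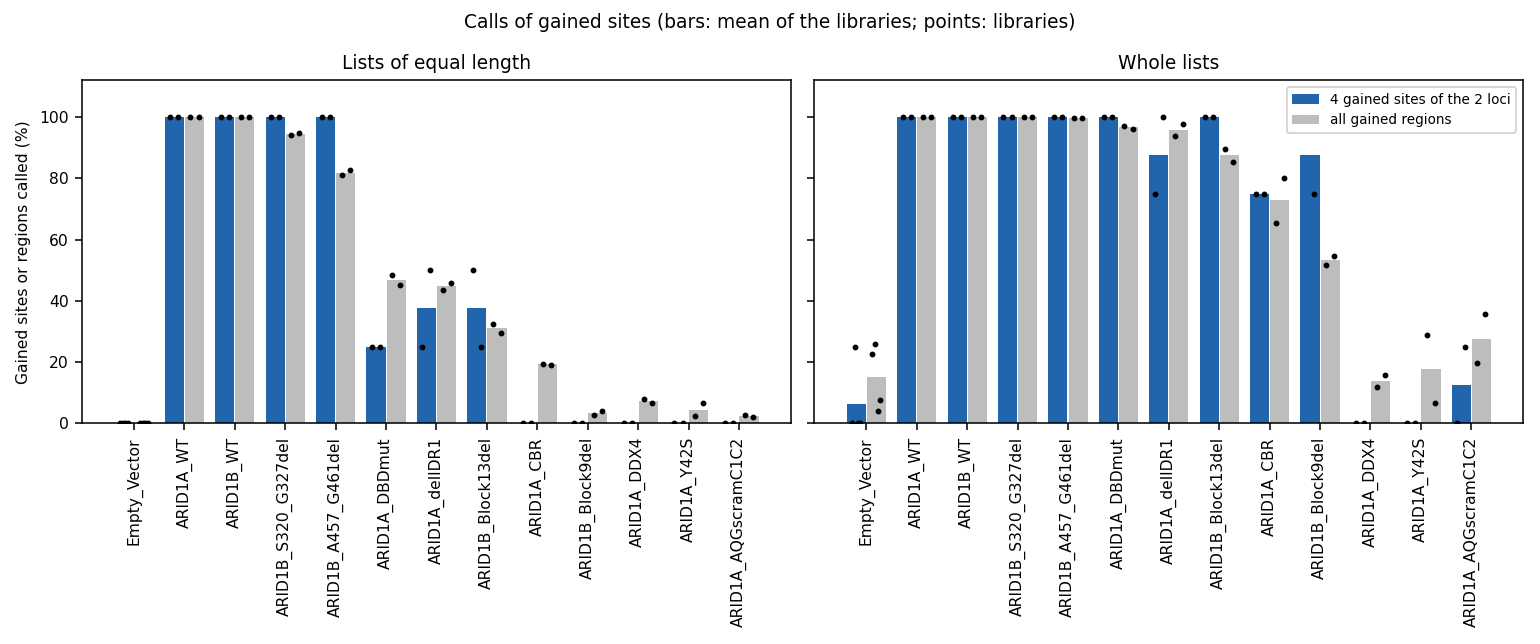
Percent of the 4 gained sites of the 2 loci (blue) and of all 1905 gained regions (grey) called per construct, in equal-length lists (left) and whole lists (right); bars are means over libraries and points are libraries. Wild type and Empty_Vector are at 100% and 0% on the left by the definition of gained; Block9del goes from 0% to 87.5% of the 4 sites between the panels.

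Of the 10 libraries whose genotype label names the empty vector, the 2 of A457_G461del and the 2 of Block13del called gained sites in the equal-length lists, and the 6 others called none. These libraries take no part in the definition of gained and lost sites.

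The lost sites were, by definition, called in every Empty_Vector and no wild-type equal-length list. At SH3PXD2A, the site 29.4 kb upstream of the start, chr10:105644332-105644877, is 546 bp wide and ranked 19405, 16563, 15982 and 12906 in the 4 Empty_Vector libraries. ARID1A_WT had it only in the whole lists, at 28727 and 26941, and ARID1B_WT not at all. Block13del (13887 and 14108), Block9del (14924 and 19066) and AQGscramC1C2 (14113 and 16517) called it in both equal-length lists. CBR 2 (18444) and DDX4 2 (15773) called it in 1 library of the construct. At 19405, Empty_Vector 1 lay just inside the equal-length list, so this call rests on the length chosen.

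At SH3PXD2B, the lost site 7.8 kb upstream of the start, chr5:171888849-171889810, is 962 bp wide. Its Empty_Vector ranks were 15262, 12470, 12166 and 14994. The wild-type libraries held it outside the equal-length lists, at 20132 and 34073 for ARID1A_WT and 26613 and 35280 of the whole lists for ARID1B_WT. It was listed in 27 of the 28 whole lists, the 4 wild-type ones included. CBR, DDX4, delIDR1, Block13del and Block9del called it in both equal-length lists, and DBDmut 2, AQGscramC1C2 2 and Y42S 1 called it in 1 library of the construct. S320_G327del had it at 43672 and 42957, and A457_G461del at 21738 and 28586. Thus neither form that called all gained sites called either lost site in the equal-length lists. Over all 750 lost regions these forms called 6.40% ± 1.88 and 20.9% ± 0.283 (SD, n = 2 each), and the 8 other altered forms called means of 52.5% (delIDR1) to 81.5% (AQGscramC1C2). With whole lists or the top 10000 peaks neither site was lost. The SH3PXD2A site also was not lost under the stricter peak threshold, nor the SH3PXD2B site where a peak had to cover 50% of the site.

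**Figure D4:**
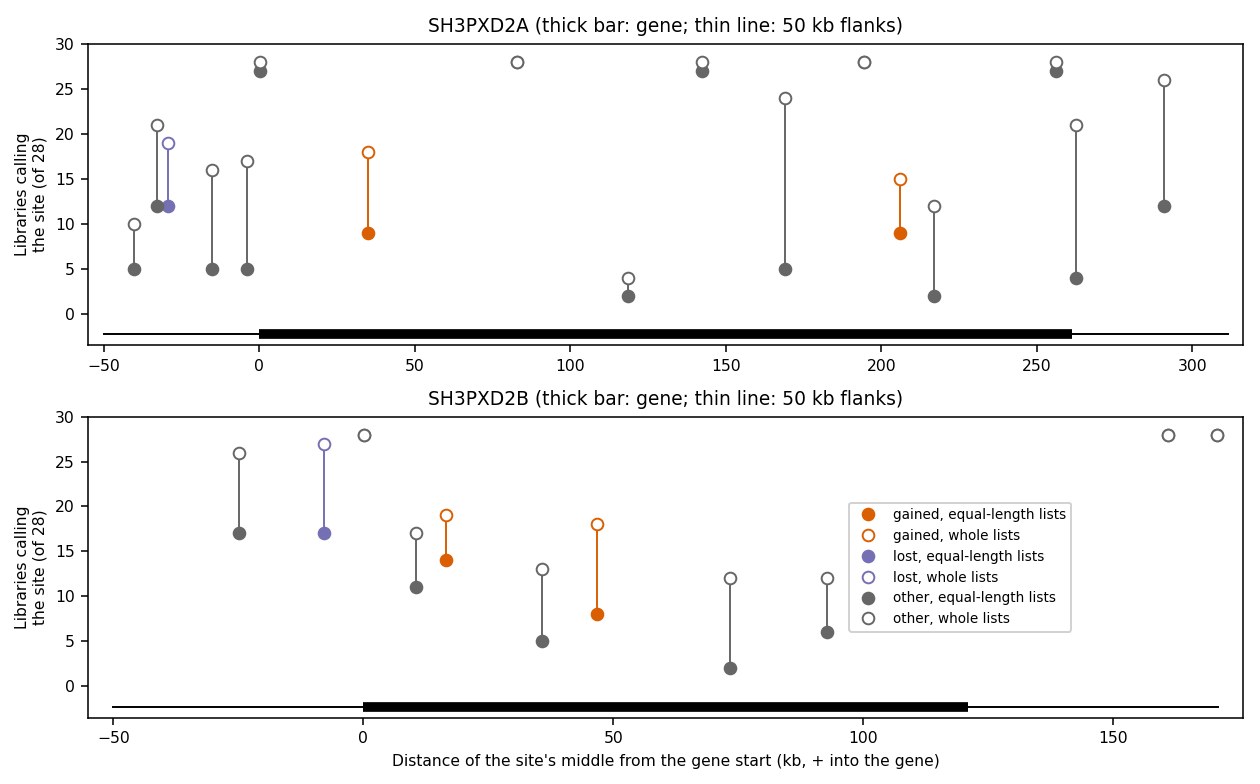
Number of libraries (y axis, of 28) that call each site against its distance from the gene start in kb (x axis), in equal-length lists (filled) and whole lists (open; the open circle covers the filled one where the counts are equal). Gained sites (orange) lie inside the genes and lost sites (purple) upstream, while the sites over the starts are called by 27 and 28 libraries.

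The sites over the starts of both genes were called in all groups, and whether each library's own peak covered the start was not examined. The site over the SH3PXD2A start, chr10:105614073-105615915, is 1843 bp wide and was called by 27 equal-length lists. Its ranks were 10850 and 11861 with ARID1A_WT, 21200 and 14773 with ARID1B_WT, and 11799, 9785, 10225 and 12311 with the empty vector. Both ARID1B_WT ranks lay behind all Empty_Vector ranks, and ARID1B_WT 1 was the library outside the equal-length calls. The site over the SH3PXD2B start, chr5:171879562-171883353, is the widest of all, 3792 bp, and was called by all 28 libraries. Its ranks were 13963 and 14575 with ARID1A_WT, 16168 and 9434 with ARID1B_WT, and 13762, 13503, 8281 and 9647 with the empty vector. Both ARID1A_WT ranks lay behind all Empty_Vector ranks, while the ARID1B_WT ranks overlapped them. The share of all regions at which a wild type ranked behind the empty vector in this way was not computed.

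The site with the best mean rank of the SH3PXD2A locus lay inside the gene at +82.9 kb, chr10:105531825-105532772, 948 bp wide, and was called by all 28 libraries. Its ranks were 2532 and 3560 with ARID1A_WT and 2544 and 2536 with ARID1B_WT. The Empty_Vector ranks were 4549, 6539, 7208 and 7133, so the wild-type and empty vector groups did not overlap at a site that was called in both. The share of all regions ranked this way was not computed. At +82.9 kb the strongest ranks were 1008 and 625 with CBR and 1557 and 794 with delIDR1, both labelled as truncations, ahead of all wild-type libraries. DBDmut, from the same runs, ranked it at 4320 and 4073. For the SH3PXD2B locus the best mean rank belonged to the site at +170.7 kb, chr5:171709963-171711690, which reaches the outer edge of the 50 kb flank downstream of the gene. It ranked between 61 and 1423 in all 28 libraries.

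Other sites were also open in nearly all libraries. SH3PXD2A +194.6 kb, 2825 bp wide, ranked between 3110 and 11452, and SH3PXD2B +161.0 kb between 3393 and 11613, in all 28 libraries. At SH3PXD2B +161.0 kb the wild-type ranks, 5392 to 6322, also did not overlap the Empty_Vector ranks, 6971 to 9150. Here too the share of all regions ranked this way was not computed. SH3PXD2A +142.2 kb and +256.3 kb were each called by 27 equal-length lists, and the missing libraries, S320_G327del 1 and ARID1A_WT 2, had them at 22883 and 21259 of their whole lists. Called by part of the libraries without following wild type or empty vector were the SH3PXD2A sites at +290.8 kb (12 libraries) and 33.0 kb upstream (12), and the SH3PXD2B site 24.8 kb upstream (17).

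The sites below had few calls in the equal-length lists, from few constructs each. SH3PXD2A +217.0 kb was called in the equal-length lists of S320_G327del, at 13131 and 11608, and of no other construct. SH3PXD2A +262.5 kb was called by 4 libraries, ranking 17729 and 18455 with AQGscramC1C2, 17064 in Block13del 2 and 19259 in DDX4 1. SH3PXD2B +73.3 kb was called by ARID1B_WT 1 (8839) and S320_G327del 2 (16097). The SH3PXD2A site 4.0 kb upstream was called by Empty_Vector 3 and 4 of run C (15508 and 18138), ARID1A_WT 2 (16581), DDX4 1 (14540) and AQGscramC1C2 1 (17395). SH3PXD2A +169.1 kb was called by Empty_Vector 1, 2 and 3 (17610, 19256 and 17903), CBR 2 (14346) and delIDR1 1 (16700), and by no wild-type library. The whole lists held these sites more widely. SH3PXD2A +169.1, +262.5 and +217.0 kb were in 24, 21 and 12 of them, each with all 4 wild-type lists. SH3PXD2B +73.3 kb was in 12, also with all 4, and the SH3PXD2A site 4.0 kb upstream in 17, with 3 of the 4.

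Sites near the threshold behaved in several ways. SH3PXD2B +10.5 kb, chr5:171870398-171871641, missed the name gained by 1 library. It ranked 7435 and 2534 with ARID1B_WT, 2364 and 5297 with S320_G327del, and 2379 and 3464 with A457_G461del. ARID1A_WT had it at 25764 (whole list only) and 15225, and no Empty_Vector list held it. The ranks of these 3 ARID1B groups did not overlap those of ARID1A_WT, and the share of all regions ranked this way was not computed. Among the ARID1B forms, Block13del had it at 18180 and 13917, and Block9del 1 at 26890 in the whole list only. SH3PXD2B +35.8 kb, chr5:171845216-171846333, also missed by 1 library. It ranked 14003 and 14569 with ARID1A_WT and 21234 (whole list only) and 13320 with ARID1B_WT, and again no Empty_Vector list held it. A pair of upstream sites of SH3PXD2A was also in all 4 whole wild-type lists and no Empty_Vector list. The site at 15.2 kb upstream ranked 14860 and 14951 with ARID1B_WT, against 34811 and 24245 (whole lists only) with ARID1A_WT. The site at 40.2 kb upstream ranked 7723 and 10100 with S320_G327del, 11650 and 20797 with ARID1B_WT, and 17151 and 27756 with ARID1A_WT.

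Over the 28 sites, both ARID1B_WT ranks were ahead of both ARID1A_WT ranks at 7 sites, and the reverse held at 3, where 17.2% and 21.8% of all regions did so. A site with no call was placed 1 past the end of the equal-length list. Of the 4 gained sites, 3 were among those 7, and 55.5% of all gained regions were ranked that way. The 2 wild types come from different runs, and the protein and the run cannot be told apart. The empty vector libraries of the same runs also differed: those of run C were ahead at 4 sites and those of runs A and B at 4, against 14.4% and 16.7% of all regions. At the 3 gained sites the empty vector ranks could not differ, since by definition no Empty_Vector equal-length list calls a gained site. They therefore tell nothing about the run there. With 2 libraries against 2, an exact permutation test cannot go below p = 0.333, and none was made.

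Within runs, the calls at the loci were as follows. Comparing ARID1A_WT with the empty vector libraries of runs A and B, 5 sites were gained (9.19% of all regions) and 4 lost (6.91%). Comparing ARID1B_WT with those of run C, 6 sites were gained (12.6%) and 3 lost (9.42%). The 4 gained and 2 lost sites above were in both sets by definition. The sites added in runs A and B were SH3PXD2B +35.8 kb, gained, and SH3PXD2A +169.1 kb and SH3PXD2B +92.7 kb, lost. Those added in run C were SH3PXD2B +10.5 kb and the SH3PXD2A site 15.2 kb upstream, gained, and the SH3PXD2A site 4.0 kb upstream, lost. In the whole lists, 8 of the 28 sites were gained (18.4% of all regions) and 0 lost (0.109%).

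In the equal-length lists, 2 sites inside the genes were called only in runs A and B, and not with every construct of these runs. SH3PXD2B +92.7 kb, chr5:171788449-171789213, ranked 6925 and 10432 in Empty_Vector 1 and 2 of runs A and B, and had no peak in Empty_Vector 3 and 4 of run C. In runs A and B it was also called with CBR (9031 and 13853) and delIDR1 (10820 and 9230), and in no equal-length list with DBDmut or ARID1A_WT. All 6 libraries of run C lacked it even in the whole lists. Weaker whole-list peaks were held there by DBDmut (31960 and 26707), ARID1A_WT 1 (40956), AQGscramC1C2 of run F (25318 and 33127) and Y42S 1 of run E (23475). SH3PXD2A +118.4 kb, chr10:105496601-105496862, only 262 bp wide, was called in the equal-length lists with CBR alone, at 14831 and 11333. Its other peaks were those of Empty_Vector 1 and 2, at 22189 and 25387 of the whole lists, and the 24 remaining libraries had none. The part of the run in either site was not tested.

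The 4 constructs of run E took no part in choosing the loci, and their ranks were compared with an exact permutation test of the F statistic over the 8 libraries. It has 105 ways of assigning the libraries and a smallest p of 0.00952. After Benjamini-Hochberg adjustment over 28007 tested regions 0 regions passed (0% of all), with a smallest adjusted p of 0.507 in this permutation test. The smallest possible p was reached by 321 regions. An adjusted p under 0.05 would need far more regions at that value, so nothing is read from the 0. An unadjusted p under 0.05 was found for 6.58% of the regions. At the loci 21 sites could be tested and 7 had no call in the run. None passed, and 3 had an unadjusted exact permutation p of 0.0286. These were SH3PXD2B +16.5 kb (called with A457_G461del and Block13del, not with Y42S or Block9del), SH3PXD2B +10.5 kb (the same constructs) and the lost site of SH3PXD2A (Block13del and Block9del). A site called with 1 construct of the run cannot go below 0.143, and this limit holds for SH3PXD2A +35.0 kb and SH3PXD2B +46.8 kb, which in this run A457_G461del alone called.

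Weaker peaks added to the picture in the whole lists. These held 479 peaks in the SH3PXD2A window and 317 in the SH3PXD2B window, of which 28.4% and 25.9% lay outside the 28 sites. Merged, the latter gave 31 weak sites at SH3PXD2A and 21 at SH3PXD2B. Of them 10 and 6 were seen in 1 library, where 26.1% of all such weak sites of the genome were. In all 4 wild-type and no Empty_Vector list were 6 and 3, where 13.5% of all weak sites were. The weak site of SH3PXD2A 22.6 kb upstream, chr10:105637514-105638005, was singled out after its values were seen. It was listed by the 4 wild-type libraries and by none of the other 24, with a best rank of 21347. Whole wild-type lists were the longer ones, 59826 to 76589 peaks against 24573 to 49528 for the empty vector, and the part of length in these weak calls was not tested.

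In windows of 1 Mb, chr10:105000001-106000000 held 7 gained and 2 lost of 35 regions and chr5:171000001-172000000 held 9 gained and 2 lost of 31. As many gained regions were found in 14 and 4 of 2554 windows, values that served to choose the loci. At the edge of the rule, the nearest region outside the SH3PXD2A window on its upstream side, chr10:105667753-105668716, was 2.59 kb past the edge. It was gained and called by 24 libraries, while the outermost site inside, 9.34 kb from the edge, was called by 5. On the downstream side the nearest outside region was 0.11 kb past the edge and called by 8 libraries, and the outermost inside was called by 12. The nearest outside regions of SH3PXD2B were 94.4 kb and 23.9 kb past the edges, called by 28 and 4 libraries.

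The pattern of construct calls at the 4 sites was most like that of 3 other windows, by the mean absolute difference in the share of gained regions called over the 10 altered constructs. These were chr1:48000001-49000000 with 8 gained regions and a difference of 2.5 percentage points, chr1:212000001-213000000 with 5 and 4.0, and chr3:14000001-15000000 with 5 and 4.5. The median difference over the 46 windows compared was 10.4. In all 3, S320_G327del called 100% of the gained regions, and DDX4, Y42S, AQGscramC1C2 and Block9del called 0%.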

How the data were processed

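The 28 deposited peak lists were made from ATAC-seq of AN3CA cells, 1 list per library. The submitters' processing notes name hg19, MACS2, SAMtools 0.1.19, Picard 2.8.0, Bowtie2 and bcl2fastq; the caller's options, its control and any cut-site shift were not stated. Per the file format, the deposited columns are the authors' fold enrichment (a ratio), −log10 p-value and −log10 q-value, and a score; the score was not used. Read depth is unknown, so list length limits precision.

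Each list was limited to chromosomes 1 to 22 and X and to its 19433 strongest peaks by −log10 p. Overlapping peaks were merged into regions, those with calls from at least 2 libraries were retained, and an overlap of 1 bp counted as a call. Analyses used Python 3.11.15, numpy 2.4.6, pandas 2.3.3 and scipy 1.17.1, and the permutation test was tested on simulated data. The loci and all lists were chosen with earlier results of these data known. Named sites are the gained, lost, start and best-ranked sites of each locus; others named were chosen after their values were seen. Windows most alike were the 3 with the smallest difference among those with at least 5 gained regions. Alternatives were whole lists, the top 10000 peaks, a −log10 q minimum of 5, an overlap of 50% and each library left out. A podosome gene list and peak sequences were not analysed here for want of hg19 gene positions.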

Additional observations from a re-analysis of the deposited data

Results flagged for a closer look

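At SH3PXD2A +142.2 kb the wild types moved in opposite directions against the empty vector of their own runs, in every library, and the difference was not tested. The mean rank of ARID1A_WT minus that of Empty_Vector in runs A and B was 2788.0 (13788 against 11000.0), a weaker rank. The mean rank of ARID1B_WT minus that of Empty_Vector in run C was -3383.0 (11650.5 against 15033.5), a stronger rank. In run C the Empty_Vector ranks were 17617 and 12450, far apart, and the ARID1B_WT ranks were 11182 and 12119. This was 1 of 28 sites compared in this way, and the share over all regions was not computed. In 12 quantities checked, no Empty_Vector library stood apart from the other 3.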

How the results depend on the processing

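The counts rest on list length. With whole lists merged anew, gained sites went from 2 to 10 at SH3PXD2A and from 2 to 7 at SH3PXD2B, and lost sites from 1 to 0 at each; with the top 10000 peaks all 4 counts were 0. All gained regions numbered 17400 and 424 under these settings and all lost regions 79 and 122, against 1905 and 750. The lost site of SH3PXD2A was not called under the stricter threshold (0), nor that of SH3PXD2B with 50% overlap (0), where all lost regions fell to 463 and 322. Leaving out each wild-type or empty vector library gave 1 to 2 lost sites at SH3PXD2A, 2 without Empty_Vector 4, and the other counts stayed within 1.5 times. On the same 4 gained sites, whole lists gave shares of 75.0% for CBR, 100% for DBDmut, 87.5% for delIDR1, 12.5% for AQGscramC1C2, 100% for Block13del and 87.5% for Block9del. The top 10000 peaks gave 0% for DBDmut, delIDR1 and Block13del, 87.5% for S320_G327del and 25.0% for A457_G461del. List length changes calls by construction, since it sets how many weak peaks are kept; for the threshold and overlap settings the cause was not tested. The replicate block of the run E test called 0 regions (smallest adjusted p 0.694, permutation test), as did all its other settings (0.460 to 0.683); same-numbered libraries shared only a number, with correlations of their deviations from -0.063 to 0.042.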
